A study of Mus musculus with 2 samples.

Results

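Mature neutrophils of mouse bone marrow that carried gelatinase granule transcripts were described in 2 single-cell RNA libraries. Members were barcodes with 1000 or more UMIs (unique molecular identifiers, which count captured transcript molecules) and under 10% of UMIs from mitochondrial genes. At least 5% of their UMIs came from S100a8 and S100a9 together, under 2% from Camp, Ngp and Ltf, under 1% from Elane, Mpo, Prtn3 and Ctsg, and they held more UMIs of Mmp8 than of Csf3r. This rule found 3585 members among 23794 barcodes that passed the UMI and mitochondrial filters and 31569 barcodes in all, 1829 of them in the control library and 1756 in the MYC library. The control library came from Mx1Cre+/-;Rosa26+/+ marrow and the MYC library from Mx1Cre+/-;Rosa26LSL-MYC/LSL-MYC marrow. Both genotypes carry 1 Mx1Cre allele, a Cre recombinase under the interferon-inducible Mx1 promoter, and in the second a MYC transgene stands behind a stop cassette on both Rosa26 alleles that Cre removes. Age, sex, number of animals, pooling and any inducing treatment were not given in the sources used here. With 1 library per genotype there was no replicate spread and no test, so genotype cannot be told apart from animal or library preparation. All intervals are 95% intervals that cover counting error only.

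Neutrophils fill their granules in sequence as they mature, first azurophil (primary) granules, then specific (secondary) granules, then gelatinase granules, while receptors for chemoattractants appear last. Mmp8 and Mmp9 encode the neutrophil collagenase and gelatinase B, which cut extracellular matrix, and Retnlg encodes a resistin-like secreted protein of mature mouse neutrophils. Csf3r encodes the G-CSF receptor, which keeps neutrophils alive and is most abundant in terminal cells.

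The control library held 17073 barcodes and 131884603 UMIs, and the MYC library 14496 barcodes and 110012176 UMIs; 13251 and 10543 barcodes passed the first filters. The libraries shared 97 barcode sequences, carried by 6 control members and 7 members of the MYC library, and none was a member in both. Members summed to 8552490 and 9203504 UMIs. Levels are given below as UMIs per 1000000 UMIs of the group (CPM). Free RNA was present in the droplets, and its size was read from B lineage barcodes (Cd79a and Cd79b both detected, 1159 control and 187 MYC), which should lack granule transcripts. The feature named MYC, which stands apart from mouse Myc, checks the labels. It had 0 UMIs in control members, which by a limit of 3 counts allows a share of cells with a UMI of up to 0.164%, and 90 UMIs in members of the MYC library, or 9.78 CPM (7.86 to 12.02). Of those members 4.50% (3.58 to 5.58) carried a MYC UMI at a median depth of 4940 UMIs, against 3.21% (1.19 to 6.85) of B lineage barcodes at 5566 UMIs. Since Mx1Cre can act in B cells too, they are no MYC-free comparison here. By level, members stood 3.23-fold (2.43 to 4.29) above immature neutrophils, 3.05-fold (1.35 to 8.53) above B lineage barcodes and at 0.869 times (0.526 to 1.51) the other mature neutrophils. Mouse Myc stood at 5.38 and 5.11 CPM in control and MYC members.

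Members took a larger share of the MYC library. They made up 13.8% (13.2 to 14.4) of kept control barcodes and 16.7% (15.9 to 17.4) of kept MYC barcodes, a difference of 2.85 percentage points (1.93 to 3.78). It was 1.48 points with Camp, Ngp and Ltf under 1% and 1.92 points when Mmp8 and Csf3r were compared after thinning each barcode to 1000 UMIs. Mature neutrophils that met the same limits but did not hold more Mmp8 than Csf3r went the other way, from 7.55% to 5.48% (1001 and 578 barcodes). Both kinds together held 21.4% and 22.1%, and the interval of that difference, -0.279 to 1.84 points, included 0. Immature neutrophils, here barcodes with 2% or more of UMIs from Camp, Ngp and Ltf, made up 32.4% and 35.9%. Within the mature neutrophils, members were 64.6% of control and 75.2% of MYC barcodes, a difference of 10.6 points (8.08 to 13.1). That direction depended on depth: with all barcodes of 500 or more UMIs the shares were 57.5% and 52.8%, a difference of -4.69 points, and after the same thinning the difference was 6.62 points. B lineage barcodes, which enter the first denominator, went from 8.75% to 1.77%. The genes of the rule themselves differed between the libraries. In immature neutrophils the log2 ratio of MYC over control was -0.94 for Csf3r, -0.70 for Mmp8, 0.42 for S100a9 and -0.04 for S100a8. The part of these differences in the shares was not tested.

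**Figure D1:**
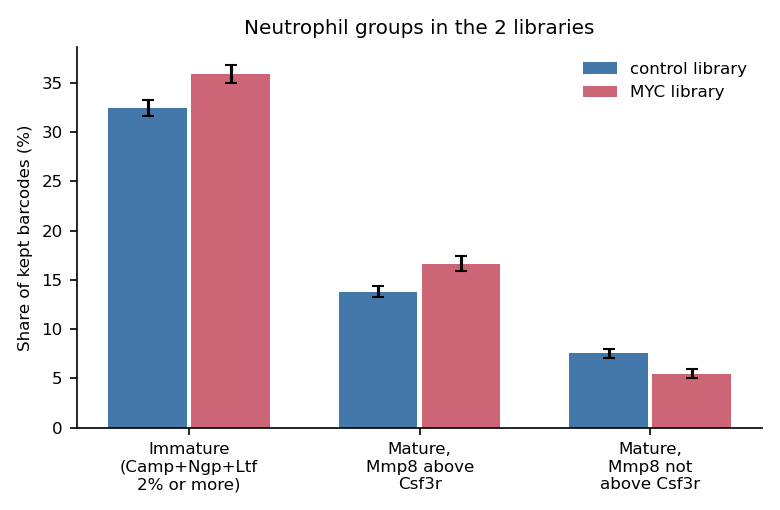
Share of kept barcodes (%, y axis) held by 3 groups of neutrophils (x axis) in the control (blue) and MYC (red) library. Bars are the shares and error bars exact 95% binomial intervals; the middle pair are the members, at 13.8% and 16.7%, and the right pair runs the other way.

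The edge of the rule was thin in UMIs. Members with a single Mmp8 UMI more than Csf3r numbered 156 in each library, with medians of 3 Mmp8 and 2 Csf3r UMIs for control and 1 and 0 for MYC barcodes. Just outside, Mmp8 equalled Csf3r in 168 control and 247 MYC barcodes, of which 58 and 167 held neither transcript. Those with neither were shallow, with medians of 1201 and 1119 UMIs, and count among the other mature neutrophils compared below. Most members lay well inside: 1415 control and 1327 MYC members held at least 5 more Mmp8 than Csf3r UMIs. In the MYC library those had median values of 16 Mmp8 and 2 Csf3r UMIs. Along the S100a8+S100a9 limit, 47 and 40 members held 5 to 6%, and 35 and 38 barcodes that met the other limits 4 to 5%. Along the Camp+Ngp+Ltf limit, 191 and 216 members held 1.5 to 2%, and 215 and 164 barcodes 2 to 2.5%.

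Members of the MYC library were somewhat deeper. Their median was 4940 UMIs and 1363 genes, against 4087 UMIs and 1283 genes in the control. Median S100a8+S100a9 shares were 24.1% and 19.5%, median Camp+Ngp+Ltf shares 0.448% and 0.339%, and median mitochondrial shares 0.843% and 0.657%. Shallow members were a mixed group. Of control members 156 (8.53%) and of MYC members 221 (12.6%) held under 2000 UMIs, and their median share of UMIs from erythroid and B lineage markers was 3.87% and 1.27%. Over all members that share was 0.475% and 0.240%, and 246 control and 157 MYC members reached 1%.

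The label was checked against Mmp8, Mmp9 and Retnlg, which all 3 peaked in members among the 4 groups compared. Mmp8 stood at 4015 CPM in control members and 2774 CPM in MYC members, against 793 and 493 CPM in the other mature neutrophils, 1616 and 996 CPM in immature neutrophils, and 36.2 and 52.4 CPM in B lineage barcodes. The rule chose on Mmp8 and Csf3r, so this order is a description of the rule. Mmp9, which the rule did not use directly, stood at 2536 and 2122 CPM in members, 1842 and 1371 CPM in the other mature neutrophils and 1003 and 824 CPM in immature ones. That put members 1.38-fold (1.34 to 1.42) above the other mature neutrophils in the control and 1.55-fold (1.48 to 1.62) in the MYC library. Retnlg stood at 22832 and 32657 CPM in members, 11803 and 20212 CPM in the other mature neutrophils and 2828 and 4230 CPM in immature ones. Members were thus 1.93-fold (1.91 to 1.96) and 1.62-fold (1.60 to 1.63) above the other mature cells, and 8.07-fold and 7.72-fold above immature ones. The summed list of 16 gelatinase granule and secretory vesicle genes was not highest in members. It stood at 17384 and 15053 CPM in members and 10101 and 9533 CPM in the other mature neutrophils. Immature neutrophils held 17976 and 15411 CPM. Ly6g, the surface protein by which mouse neutrophils are sorted, stood at 401 and 465 CPM in members, at 173 and 306 CPM in the other mature cells and at 408 and 297 CPM in immature neutrophils, so that members and immature cells were level in the control.

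**Figure D2:**
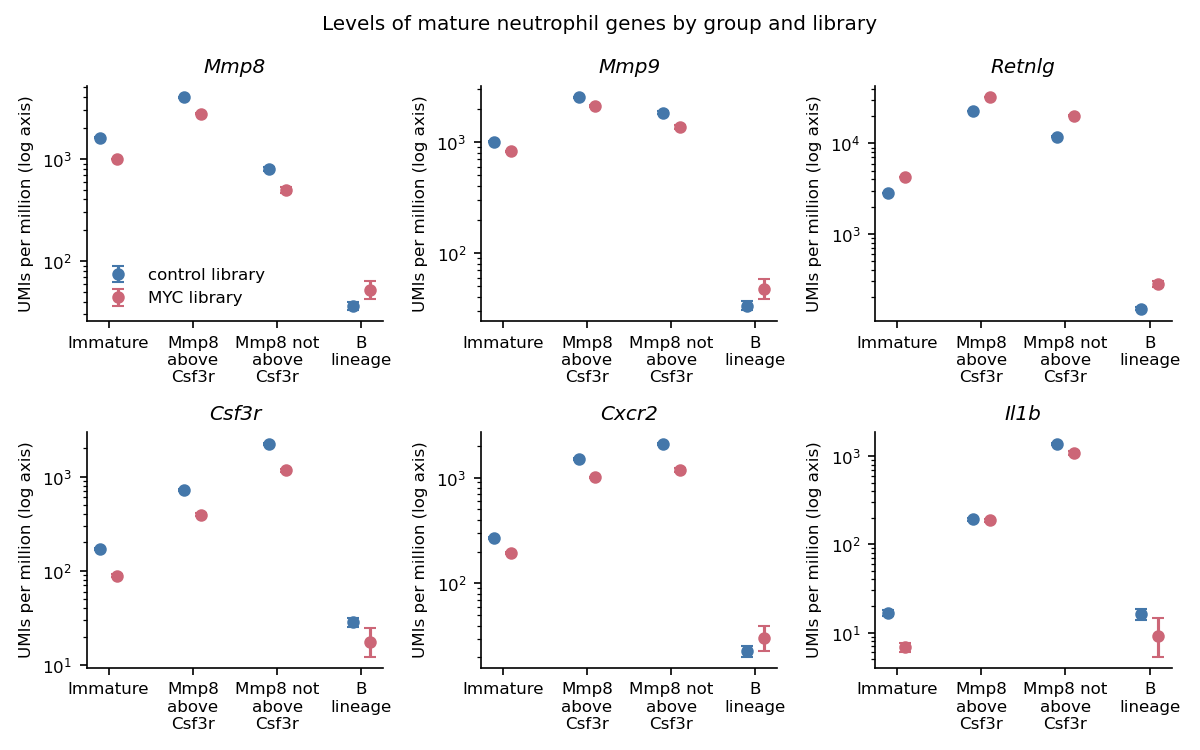
Levels (CPM, log axis) of 6 genes in 4 groups of barcodes (x axis), control in blue and MYC library in red, with exact 95% Poisson intervals. Mmp8, Mmp9 and Retnlg are highest in the Mmp8-above-Csf3r members, whereas Csf3r, Cxcr2 and Il1b are highest in the other mature neutrophils, in both libraries.

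Thinning each barcode to 1000 UMIs gave shares of cells with a UMI that do not depend on depth. Mmp9 was then detected in 88.2% (86.7 to 89.7) of control and 83.0% (81.2 to 84.8) of MYC members, against 3.02% and 4.28% of B lineage barcodes; unthinned, the member shares were 97.3% and 95.7%. Retnlg was detected in 98.4% and 99.0% of thinned members. Its background was larger, at 12.7% and 17.6% of thinned B lineage barcodes. Cells spread widely around these levels. Per 10000 UMIs of a cell, the quartiles of control members were 16.6 and 35.5 for Mmp9 and 152 and 321 for Retnlg, and those of MYC members 14.8 and 29.5 for Mmp9 and 226 and 443 for Retnlg. The Retnlg ranges overlapped between the libraries, although the MYC median (346) lay above the control's upper quartile (321).

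Between the libraries the 3 markers did not move together. In members Retnlg was higher in the MYC library by 0.52 on the log2 scale (0.51 to 0.52), while Mmp8 was lower by -0.53 (-0.56 to -0.51) and Mmp9 by -0.26 (-0.29 to -0.23). None of these passed 1.5-fold, the size used below to call a gene higher or lower, with log2 ratios of CPM plus a pseudocount of 1. Retnlg was above 1.5-fold with median-of-ratios scaling (0.67), and Mmp8 reached it without the barcodes of highest doublet score and with the Camp+Ngp+Ltf bins described further on weighted alike (both -0.59). The same order held in the other mature neutrophils (Retnlg 0.78, Mmp8 -0.68, Mmp9 -0.43) and in immature ones (0.58, -0.70, -0.28).

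The 250 bases before the start of Mmp8 and of Retnlg are shown because both markers are late neutrophil genes that differed in opposite directions, and both windows hold the C/EBP letters TTGCNNAA, searched on both strands. C/EBP factors drive granulocyte genes. Sequences are from RefSeq on GRCm38.p6, in the direction of transcription. Mmp8 is at chr9:7558179-7558428 (+ strand) and Retnlg at chr16:48872358-48872607 (+ strand); capitals mark the match, on the reverse strand for Retnlg. The letters occur in 9.56% of 32851 such windows, and 2 of the 13 gelatinase list genes with a window hold them. A match describes the letters only.
Mmp8: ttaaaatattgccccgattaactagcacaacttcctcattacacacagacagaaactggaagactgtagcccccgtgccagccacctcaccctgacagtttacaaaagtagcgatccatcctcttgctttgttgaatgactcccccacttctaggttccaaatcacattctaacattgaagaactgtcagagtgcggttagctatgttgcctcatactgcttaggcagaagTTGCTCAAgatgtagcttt
Retnlg: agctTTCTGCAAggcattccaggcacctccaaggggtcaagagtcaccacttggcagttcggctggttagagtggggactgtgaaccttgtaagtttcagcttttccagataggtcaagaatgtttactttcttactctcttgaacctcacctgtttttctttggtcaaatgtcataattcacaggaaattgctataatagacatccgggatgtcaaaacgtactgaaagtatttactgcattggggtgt

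Against the other mature neutrophils, members held more transcripts of several specific and gelatinase granule genes. In both libraries 7 of 16 specific granule genes and 5 of 16 gelatinase granule and secretory vesicle genes were at least 1.5-fold higher in members, against 1 of 8 oxidase subunits and 0 of 9 azurophil granule genes. At least 1.5-fold lower in both were 10 of 38 late neutrophil genes, 3 of 9 azurophil granule genes and 5 of 34 interferon response genes. Of 7731 genes compared in both libraries, 198 (2.56%) were at least 1.5-fold higher in members in both and 219 (2.83%) at least 1.5-fold lower. The rule genes Mmp8, Ngp and Csf3r are counted among the 5 gelatinase, 7 specific granule and 10 late neutrophil genes, respectively. Since members were picked from the same counts, these are descriptions. Cd177, a surface protein of the specific granule membrane, stood at 576 against 125 CPM in the control (log2 ratio 2.20) and 568 against 147 CPM in the MYC library (1.94). Cybb, the catalytic subunit of the NADPH oxidase, had log2 ratios of 1.47 and 1.10, Lcn2, the siderophore-binding lipocalin of specific granules, 1.28 and 1.01, and Mmp25, a membrane-anchored protease of gelatinase granules, 1.61 and 0.96. Rab3d, a GTPase of secretory granules, had 0.96 in both. The remaining leading genes were Ifitm6, Syne1, Adpgk, Lrrk2 and Dstn, with log2 ratios from 0.83 to 2.27. Immature neutrophils held more still of most of these genes: Cd177 was at 1173 and 925 CPM there, Lcn2 at 12392 and 13244 CPM and Cybb at 2417 and 1748 CPM. Ifitm6, Syne1, Adpgk and Dstn were also higher in immature neutrophils than in members, whereas Mmp25, Rab3d and Lrrk2 were lower.

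Il1b, the precursor of the cytokine interleukin 1 beta, was furthest below the other mature cells: 191 against 1362 CPM in the control (log2 ratio -2.82) and 187 against 1094 CPM in the MYC library (-2.54). It still stood 11.4-fold (10.4 to 12.5) and 27.4-fold (24.1 to 31.4) above immature neutrophils, whose levels of 16.8 and 6.81 CPM were near those of B lineage barcodes (16.1 and 9.08 CPM). Fgl2 (-2.08 and -1.73), Pla2g7, a phospholipase that inactivates platelet-activating factor (-1.77 and -1.32), Wfdc17 (-2.16 and -1.62), Ifitm1 (-1.54 and -1.28) and Marcks, an actin-binding protein (-1.42 and -1.43), were also lower in members. Hist1h2bc, Gm2a, H2-Q10 and Gcnt2 completed the lower genes, from -1.48 to -1.02. Members lay between the immature and the other mature neutrophils for Il1b and Cxcr2, and also, in the opposite direction, for Cd177, Lcn2 and Cybb, but above both for Mmp9, Mmp25 and Retnlg. Mmp8 and Csf3r are left out here, because the rule fixed their order against the other mature cells. Cxcr2, the receptor through which neutrophils leave the marrow, went from 268 CPM in immature neutrophils to 1487 CPM in members and 2059 CPM in the other mature cells of the control.

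Members also varied among themselves along the share of Camp, Ngp and Ltf, which falls as specific granule transcription ends. From the 387 control members with 1 to 2% of such UMIs to the 670 with under 0.25%, Il1b went from 46.6 to 342 CPM, and in the MYC library (453 and 463 members) from 29.1 to 382 CPM. Lcn2 went the other way, from 6852 to 2733 CPM in control members and from 8342 to 3766 CPM in MYC members. Cd177 went from 862 to 300 CPM and from 837 to 285 CPM. Csf3r, a rule gene, went from 444 to 852 and from 237 to 479 CPM. Mmp8 and Mmp9 were lowest in the bin under 0.25%, whereas Retnlg peaked in a middle bin, at 26640 CPM (0.25 to 0.5%) in the control and 36857 CPM (0.5 to 1%) in the MYC library.

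The bin under 0.25% held 36.6% (34.4 to 38.9) of control members and 26.4% (24.3 to 28.5) of MYC members. Library differences of the markers kept their direction in every bin: log2 ratios lay between -0.69 and -0.54 for Mmp8, between -0.41 and -0.22 for Mmp9, between 0.42 and 0.55 for Retnlg and between 2.21 and 2.45 for Ifitm1. Il1b was 0.16, 0.21 and 0.17 in the 3 bins under 1% and -0.66 in the bin of 1 to 2%.

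**Figure D3:**
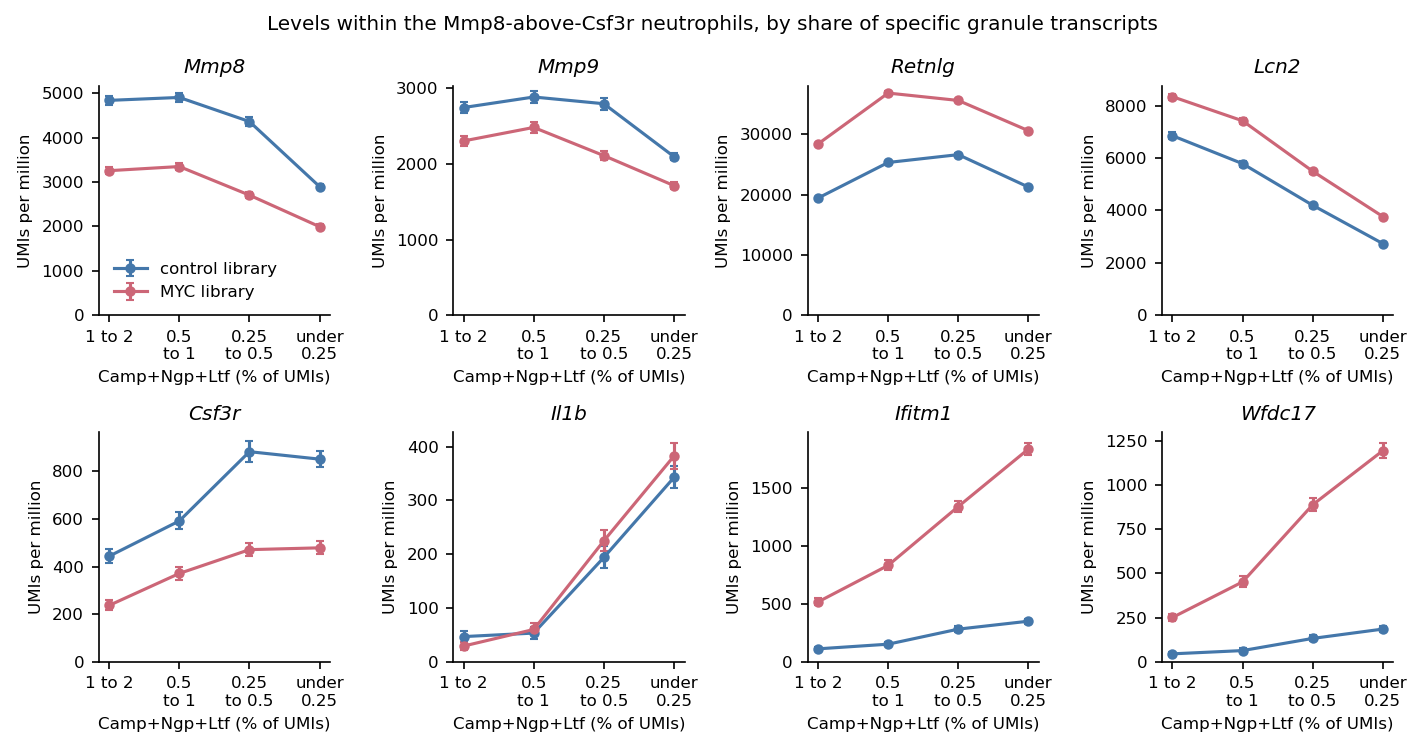
Levels (CPM, y axes from 0) of 8 genes in members split by their share of Camp, Ngp and Ltf UMIs (x axis, falling to the right), control in blue and MYC library in red, with exact 95% Poisson intervals. Lcn2 falls and Il1b, Ifitm1 and Wfdc17 climb to the right in both libraries; Mmp8, Retnlg, Ifitm1 and Wfdc17 keep the libraries apart in all 4 bins.

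Across all genes, members of the 2 libraries differed widely. Of 9106 genes with 50 or more UMIs in members, 634 (6.96%) were at least 1.5-fold higher in the MYC library and 1527 (16.8%) at least 1.5-fold lower. The median log2 ratio of all genes was -0.16, and with median-of-ratios scaling, which sets that median to 0, the counts were 1111 (12.2%) and 930 (10.2%). Markers of other cells moved with the library: the summed level of 12 erythroid markers in members was 12771 CPM for control members and 2523 CPM for MYC members, and that of 15 B lineage markers 5180 and 2566 CPM. Of these, 11 and 14 were called lower, and no marker of either list was at 0 in members. Their part in the other differences was not tested, but calls that moved by more than 1.5-fold without barcodes rich in them are marked below.

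Stefins led the higher genes ranked at a mean of 100 CPM or more, with the exclusions given under data processing. Stefins are cytosolic inhibitors of cysteine cathepsins, in a cluster of close copies on chromosome 16, so reads may be split between them. Stfa2 went from 30.6 to 272 CPM (log2 ratio 3.11, 2.97 to 3.34), Cstdc5 from 35.4 to 231 CPM (2.67), Stfa1 from 61.2 to 330 CPM (2.41) and Stfa2l1 from 535 to 1099 CPM (1.04). In B lineage barcodes of the MYC library Stfa2, Cstdc5 and Stfa1 were at 1.60, 1.07 and 0 CPM, and Stfa2l1 at 21.9 CPM.

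Cxcl2, a chemokine that attracts neutrophils through Cxcr2, went from 84.7 to 549 CPM (2.68, 2.58 to 2.81), with 0.671 and 4.81 CPM in B lineage barcodes. Wfdc17, a secreted protein of the whey acidic protein family, went from 120 to 726 CPM (2.59), G0s2, an inhibitor of triglyceride lipase, from 146 to 392 CPM (1.42), Tspo, a cholesterol-binding protein of the outer mitochondrial membrane, from 270 to 808 CPM (1.58), and Asprv1, an aspartic protease, from 97.2 to 247 CPM (1.34). Ifitm1 (245 to 1171 CPM, 2.25) and Ifitm2 (432 to 1862 CPM, 2.11) encode membrane proteins that block virus entry. Wfdc17 and Ifitm1 also differed in B lineage barcodes, at lower levels (17.1 and 96.7 CPM for Wfdc17, 14.4 and 88.7 CPM for Ifitm1). So did Ifitm2 (48.7 and 128 CPM) and Tspo (134 and 245 CPM). AY036118 (1.39), a non-coding gene over ribosomal RNA-like sequence, and Rps18 (1.35), a ribosomal protein gene, completed the higher genes. Rps18 was 2.10 without the barcodes of highest doublet score. In B lineage barcodes AY036118 was at 463 and 953 CPM and Rps18 at 947 and 3737 CPM. Rps18 was thus higher there than in members (278 and 708 CPM) in both libraries.

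Rsad2, an antiviral enzyme, led the lower genes of the same ranking, at 201 and 50.3 CPM (-1.98, -2.15 to -1.84). Tmcc1, an endoplasmic reticulum membrane protein, went from 1060 to 313 CPM (-1.76), Lilra6, an immunoglobulin-like receptor, from 153 to 58.8 CPM (-1.36), and Mpeg1, a pore-forming protein of phagocytes, from 268 to 113 CPM (-1.24). Oasl2 (-1.41), Ifi204 (-1.31) and Ifi27l2a (-1.28) are interferon-induced, and Gm15564 (-1.48) is a non-coding gene. In B lineage barcodes Rsad2 (21.7 and 1.60 CPM), Tmcc1 (68.7 and 28.3 CPM) and Gm15564 (234 and 40.6 CPM) were also lower in the MYC library. Mpeg1 was level there (38.4 and 37.9 CPM). The other 4 are best known from red cells and plasma cells: Slc4a1 (-1.87), the red cell anion exchanger, Car2 (-1.64), a carbonic anhydrase, Slc25a37 (-1.43), a mitochondrial iron carrier, and Jchain (-1.46), the joining chain of secreted immunoglobulin. Among members with under 1% of erythroid and B lineage UMIs, Slc4a1, Car2 and Slc25a37 were at -0.95, -0.85 and -0.99, and without the barcodes of highest doublet score at -0.69, -0.63 and -0.92. Jchain was at -0.27, and no longer called, when Mmp8 and Csf3r were compared after thinning. Its direction also turned within members: the log2 ratio was 1.56 in the Camp+Ngp+Ltf bin under 0.25% and -1.73, -4.56 and -3.09 in the bins above it.

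**Figure D4:**
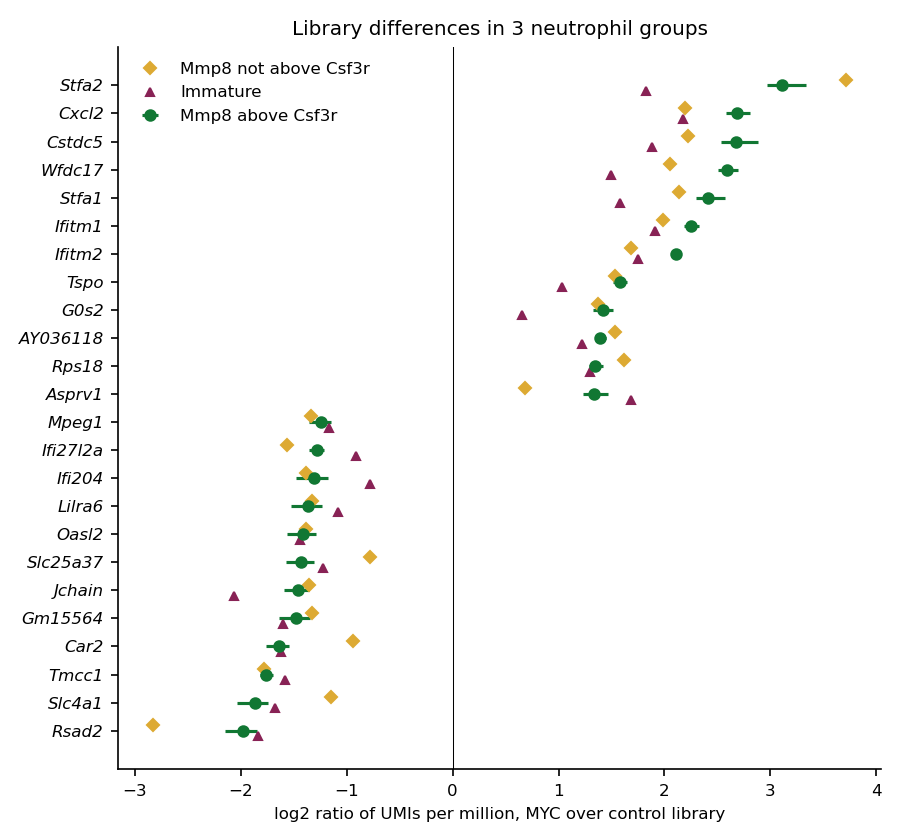
Log2 ratios of MYC over control library (x axis) for the 24 named genes (y axis) in members (green circles, bars are 95% counting intervals), other mature neutrophils (yellow diamonds) and immature neutrophils (purple triangles). All 3 groups lie on the same side of 0 for each gene; Stfa2 and Rsad2 are further from 0 in the other mature neutrophils than in members.

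Genes of gelatinase granules and secretory vesicles mostly stayed under 1.5-fold. Of 16 genes 1 was called higher and 1 lower, where 6.96% and 16.8% of all genes were, and the median log2 ratio was -0.23 (-0.16 over all genes). With median-of-ratios scaling 2 were called higher and 0 lower (12.2% and 10.2% of all genes), with Hp past the threshold at 0.59. The 2 genes called by CPM form flavocytochrome b558, the membrane core of the NADPH oxidase. Cyba went from 802 to 1307 CPM (0.70), and Cybb from 783 to 485 CPM (-0.69, or -0.53 with median-of-ratios scaling, under the threshold). Adam8 (-0.50), Padi4 (-0.42), an enzyme of neutrophil extracellular traps, and the integrin subunit Itgam (-0.40) were at lower levels, Hp, haptoglobin (0.43), at a higher one, and Cd177 (-0.02) was level. Among 8 oxidase subunits Ncf4 (0.61) was also called higher, though 0.56 without the barcodes of highest doublet score, and the proton channel Hvcn1, which balances charge during the oxidative burst, fell from 24.4 to 8.80 CPM (-1.38). Ncf1 (-0.38) and Rac2 (-0.02) were not called.

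Specific granule genes had a median of 0.12 over 17 genes, 4 called higher and 1 lower (6.96% and 16.8% of all genes), or 6 and 0 with median-of-ratios scaling. The 4 include the receptor Ltb4r1 and Anxa1, which are also counted in the receptor and alarmin lists below. Serpinb1a, an inhibitor of neutrophil proteases, went from 106 to 177 CPM (0.73), Cd63 (0.58) lay just under the threshold, and Lcn2 (0.44) was not called; both were past it with median-of-ratios scaling (0.74 and 0.60). Of 11 azurophil genes 4 were called higher and 2 lower (4 and 1 with that scaling, median 0.37 by CPM), among them the proteases Ctsg (37.3 to 86.1 CPM) and Prtn3 (112 to 191 CPM) above and Mpo, myeloperoxidase (145 to 94.1 CPM), below; all 3 are rule genes held to a small share. Summed over B lineage barcodes Mpo stood at 348 and 359 CPM, above its level in members. After thinning it was detected in 14.9% (13.3 to 16.6) and 10.8% (9.41 to 12.4) of members. In B lineage barcodes the thinned shares were 7.77% (6.29 to 9.46) and 8.02% (4.56 to 12.9), lower in the control but with overlapping intervals in the MYC library.

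Late neutrophil genes, 38 in number, had a median of 0.20, with 11 called higher and 4 lower (6.96% and 16.8% of all genes), or 15 and 2 with median-of-ratios scaling. Besides the stefins and Ifitm genes above, Ifitm6 (916 to 2277 CPM, 1.31) and Ifitm3 (752 to 1272 CPM, 0.76) were among the higher. The lower ones were Cxcr4, Csf3r, Btg1 (1345 to 866 CPM, -0.63), an antiproliferative factor, and the nuclear RNA Neat1 (1241 to 817 CPM, -0.60); Btg1 and Neat1 were not called with median-of-ratios scaling. Mxd1, a partner of MAX that opposes MYC (-0.27), and Ccl6 (-0.03) were not called.

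Receptors for chemoattractants and adhesion had a median of -0.40 (-0.16 over all genes). Of 24 genes 7 were called lower and 1 higher, where 16.8% and 6.96% of all genes were; with median-of-ratios scaling 5 were lower, against 10.2% of all genes. C5ar2, a receptor for complement C5a, went from 61.9 to 28.3 CPM (-1.10), Ptafr, the receptor for platelet-activating factor, from 95.2 to 47.3 CPM (-0.99), and Cxcr4, which retains neutrophils in the marrow, from 213 to 109 CPM (-0.96). Itgal (-0.78), Pecam1 (-0.68), the formyl peptide receptor Fpr2 (-0.65) and the rule gene Csf3r (721 to 394 CPM, -0.87) were the others. Cxcr2 was at 1487 and 1000 CPM (-0.57), just under the threshold, and was past it at -0.64 without the barcodes of highest doublet score. Ltb4r1, the high-affinity leukotriene B4 receptor, was the higher gene (106 to 181 CPM, 0.77).

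Alarmins, proteins that signal to immune receptors once released, were the series title's subject. Of 12 genes 4 were called higher and 0 lower (6.96% and 16.8% of all genes), with a median of 0.45; with median-of-ratios scaling 7 were higher and 0 lower (12.2% and 10.2% of all genes). Lgals3, galectin 3, went from 584 to 1210 CPM (1.05), S100a11 from 3274 to 5221 CPM (0.67), S100a10 from 67.1 to 106 CPM (0.66) and Anxa1, annexin A1, from 1018 to 1544 CPM (0.60; 0.55 without the barcodes of highest doublet score). S100a9 (98983 and 134358 CPM, 0.44) and S100a8 (85091 and 88694 CPM, 0.06), subunits of calprotectin, are rule genes and were not called, though S100a9 was at 0.60, past the threshold, with median-of-ratios scaling.

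Receptors of alarmins and inflammasome genes went both ways. Cd14, a co-receptor for lipopolysaccharide, went from 4.79 to 54.3 CPM (3.26, 41 and 500 UMIs), with 0.588 and 5.34 CPM in B lineage barcodes. Pycard, the adaptor of inflammasomes, went from 45.8 to 131 CPM (interval of the log2 ratio 1.35 to 1.68). Nlrp3, an inflammasome sensor, fell from 72.5 to 38.5 CPM (-0.90), and Il1rn, the natural antagonist of interleukin 1, from 149 to 44.4 CPM (-1.73). Il1b itself stood at 191 and 187 CPM (-0.03, -0.13 to 0.06), whereas it was lower by -0.32 in the other mature neutrophils. Over the 17 genes the median was -0.03.

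By CPM, every tested gene of the interferon response list had a log2 ratio below 0. Ifitm1 (2.25) and Ifitm2 (2.11), counted with the late neutrophil genes, are not in that list. Of its 34 tested genes 27 were called lower and 0 higher (16.8% and 6.96% of all genes), with a median of -0.88. With median-of-ratios scaling 22 were called lower and 0 higher. Ifit1, which binds viral RNA, went from 71.1 to 24.3 CPM (-1.51), Cmpk2 from 105 to 37.2 CPM (-1.47) and Slfn5 from 92.3 to 32.8 CPM (-1.46). Irf7 (-0.88) and Irf9 (-0.89) were in the same range, and Zbp1 (-0.15) was nearest to 0. Zbp1 alone lay above the median of all genes (-0.16), and so above 0 with median-of-ratios scaling. The median was -1.38 in the other mature neutrophils. MHC class I and immunoproteasome genes, many of which interferon also induces, had a median of -0.20, near that of all genes (-0.16), and 7 of 15 lay above it. The 4 called lower included H2-K1 (630 to 328 CPM, -0.94) and B2m (1237 to 764 CPM, -0.69), and H2-D1 was at -0.03. With median-of-ratios scaling 3 were lower and 1 higher, and B2m (-0.54) was not called.

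The windows before Rsad2 and Ifitm2 are shown because both hold the letters of an interferon-stimulated response element, GAAA and, after 2 free bases, GAAA again, on either strand, yet Rsad2 was lower and Ifitm2 higher in members of the MYC library. Rsad2 is at chr12:26456453-26456702 (- strand) and Ifitm2 at chr7:140955962-140956211 (- strand), on GRCm38.p6 from RefSeq and in the direction of transcription; capitals mark the match, on the reverse strand for Rsad2. The letters occur in 2.98% of the 32851 windows and in 14 of the 27 interferon list genes with a window. A match is not shown to be a bound site.
Rsad2: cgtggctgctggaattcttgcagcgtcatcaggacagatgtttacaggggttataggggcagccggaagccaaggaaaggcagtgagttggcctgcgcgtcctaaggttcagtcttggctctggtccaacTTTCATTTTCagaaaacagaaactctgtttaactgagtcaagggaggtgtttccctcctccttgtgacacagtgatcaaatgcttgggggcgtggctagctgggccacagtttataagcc
Ifitm2: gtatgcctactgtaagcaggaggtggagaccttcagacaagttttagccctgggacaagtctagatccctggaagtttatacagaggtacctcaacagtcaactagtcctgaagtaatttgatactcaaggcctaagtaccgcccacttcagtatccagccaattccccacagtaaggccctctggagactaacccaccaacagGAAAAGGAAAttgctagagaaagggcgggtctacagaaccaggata

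Most ribosomal protein genes were higher, while by CPM most genes of the MYC-induced, oxidative phosphorylation and glycolysis lists were not called (6.96% of all genes were higher and 16.8% lower). Of 81 ribosomal protein genes 56 were called higher and 0 lower (65 and 0 with median-of-ratios scaling), with a median of 0.74; close copies of these genes exist, so single values are uncertain. Of 50 genes that MYC is known to induce, 12 were called higher and 2 lower, with a median of 0.40, and 21 and 1 with median-of-ratios scaling (12.2% and 10.2% of all genes). The CPM median was 0.11 among members with S100a8+S100a9 of 10% or more. Nme2, a nucleoside diphosphate kinase (59.0 to 142 CPM, 1.26), the translation factors Eef1b2 (0.97) and Eif4a1 (0.91), and Ldha, lactate dehydrogenase (0.76), were among the higher. Odc1, the first enzyme of polyamine synthesis and a known MYC target, fell from 61.6 to 20.1 CPM (-1.57), and Tfrc, the transferrin receptor, from 85.4 to 51.0 CPM (-0.73). Of 49 oxidative phosphorylation genes 14 were called higher and 0 lower (median 0.38; 21 and 0 with median-of-ratios scaling), led by Atp5g1 (34.7 to 80.5 CPM, 1.19). Glycolysis genes had a median of 0.05, with Gapdh (619 to 1341 CPM, 1.11) and Ldha called higher of 23 and 0 lower, or 6 and 0 with median-of-ratios scaling.

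**Figure D5:**
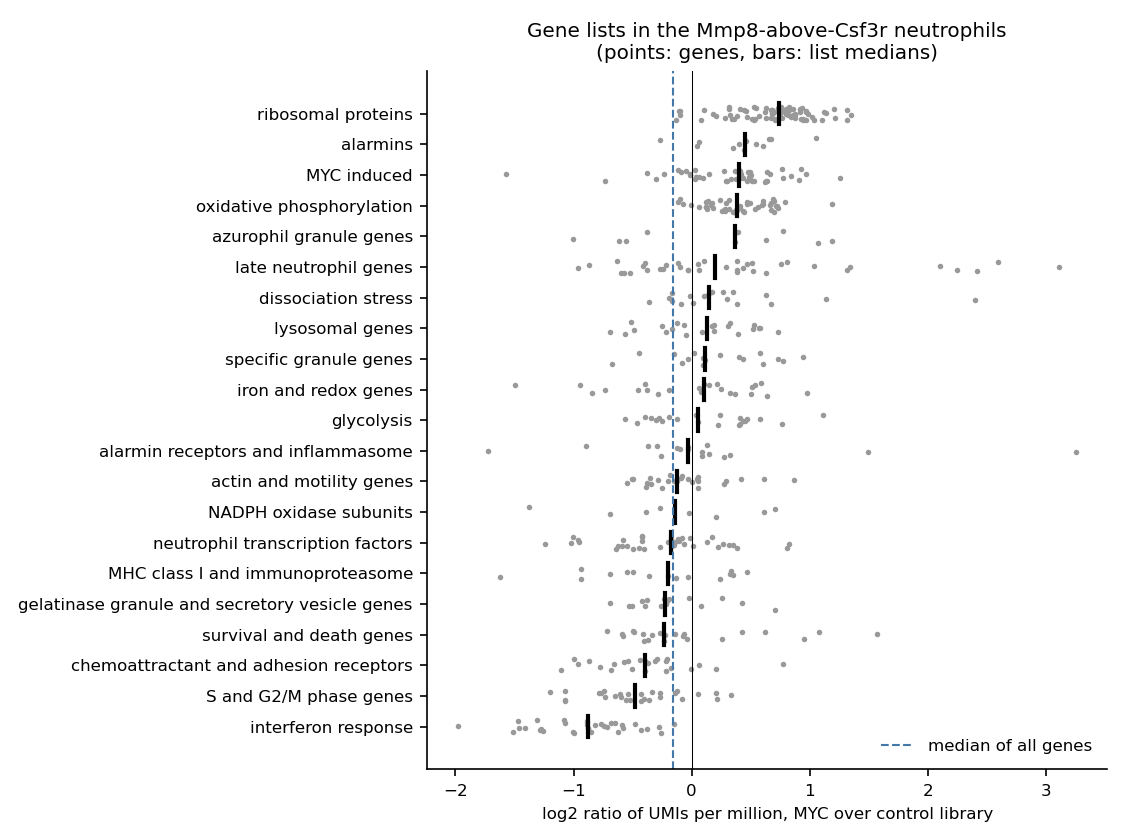
Log2 ratios of MYC over control library in members (x axis) for the genes of 21 lists (rows). Grey points are genes, black bars list medians and the dashed blue line the median of all genes (-0.16); ribosomal protein genes lie highest (median 0.74) and interferon response genes lowest (median -0.88).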

How the data were processed

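The deposited matrices hold raw UMI counts of each gene in each barcode. Per the file headers the authors made them with Cell Ranger; the submitters' processing notes name Cell Ranger 6.0, Seurat and the builds GRCm38 and mm10, with no role. Cell calling, annotation release and doublet treatment were not given in the sources used here. Nothing was corrected for free RNA, and doublets were not removed from the main values; Scrublet (scanpy 1.11.5) scores were used in an alternative that removed 10.6% of control and 8.43% of MYC kept barcodes, at 0.8% per 1000 barcodes.

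Counts were summed per library and group and divided by the group's total (CPM). CPM have exact Poisson, ratios exact conditional binomial, shares Clopper-Pearson and share differences Newcombe intervals (scipy 1.17.1). Ratios used a pseudocount of 1 CPM over genes with 50 or more UMIs; called means 1.5-fold. Genes named between libraries were the 12 highest and 12 lowest ratios with an interval excluding 1. Between members and other mature neutrophils they were the 10 leading each way in both libraries, with no limit on the interval. Both sets needed a mean of 100 CPM or more. They left out rule genes, the MYC feature, mitochondrial, haemoglobin and antigen receptor genes, Xist, Tsix, Ddx3y, Uty, Eif2s3y and Kdm5d. Genes of the lists were named as examples, those of the gelatinase, alarmin and receptor lists whatever their value. Which examples to give was chosen after their values were seen. Values of some list genes are not reported here. The members and lists were chosen with earlier results of these data known. Methods were tested on simulated data. Gene positions came from GENCODE vM21 (32158 of 32286 features matched); promoters from RefSeq.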

Additional observations from a re-analysis of the deposited data

Results flagged for a closer look

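Of 83 named genes 2 had counting intervals on opposite sides of 0 in members and in the other mature neutrophils, among 36 of all 9106 genes tested. Mmp25 had a log2 ratio of MYC over control of -0.20 in members and 0.45 in the other mature neutrophils, and S100a8 of 0.060 in members and -0.037 in the others. With 1 library per genotype these differences between the groups were not tested.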

How the results depend on the processing

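No paired analysis was possible because each genotype has 1 library. The difference in members' share of kept barcodes (2.85 points) stayed positive in all 11 alternatives and was lowest at 1.48 with Camp+Ngp+Ltf under 1% and 1.92 with Mmp8 and Csf3r compared after thinning to 1000 UMIs. The difference in their share of mature neutrophils (10.6 points) became -4.69 with 500 or more UMIs, 14.9 with 2000 or more UMIs, 14.9 with Camp+Ngp+Ltf under 1%, 14.2 with Mmp8 at least 2 times Csf3r, 6.62 after thinning and 14.9 with under 1% of erythroid and B lineage UMIs. Genes called higher (634) numbered 266 with a pseudocount of 10 CPM, 953 with no minimum of UMIs and 1111 with median-of-ratios scaling; genes called lower (1527) numbered 645 with a pseudocount of 10 CPM and 930 with median-of-ratios scaling. List medians of 0.1 or more in size changed sign in 9 cases: with median-of-ratios scaling oxidase subunits (0.013), actin and motility (0.036) and megakaryocyte markers (0.020), the last also as a mean over cells (0.18) and after thinning (0.28), basophil markers after thinning (0.082), stem or progenitor markers with no minimum of UMIs (0.013), iron and redox genes with Camp+Ngp+Ltf under 4% (-0.0024) and T or NK markers without the barcodes of highest doublet score (0.22). The cause was not tested. The 2 medians nearest to 0, of alarmin receptors and inflammasome genes (-0.03) and of monocyte or macrophage markers (-0.04), changed sign in 16 further cases, with highest values of 0.13 and 0.35. Apart from the first 9 cases, list medians moved by over 0.1 in 110 cases and by less in 432, and of 53 single genes followed none with a ratio of 0.1 or more on the log2 scale changed sign. The alternatives on marker shares and on doublet scores were chosen after seeing the data. The planned removal of doublet calls was not run, since the automatic threshold marked 670 control barcodes and 0 of 10543 in the MYC library. Low genes rest on few UMIs, and differences within the counting intervals were not detectable at this depth.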

Other observations

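Transcription factors of neutrophils had a median log2 ratio of MYC over control of -0.17 in members, near that of all genes (-0.16). Of 37 genes 2 were called higher and 8 lower (6.96% and 16.8% of all genes; 2 and 5 with median-of-ratios scaling, where 12.2% and 10.2% of all genes were), and 17 lay above the median of all genes. Cebpb, the C/EBP factor of emergency granulopoiesis, rose from 455 to 806 CPM (log2 ratio 0.82) and Klf2 from 457 to 799 CPM (0.81). Ets1 fell from 84.1 CPM by 1.24 on the log2 scale, Cebpa from 42.1 to 20.2 CPM (-1.02) and Fosl2 from 200 to 103 CPM (-0.95). Spi1 (0.22) and Cebpe (-0.15) were not called. Among 22 survival and death genes, Bax, a promoter of apoptosis, rose from 17.4 to 37.8 CPM (1.08) and Cdkn1a, a cell cycle inhibitor, from 3.51 to 7.71 CPM (0.95). Txnip fell from 389 to 236 CPM (-0.72), and the survival gene Mcl1 was at 631 and 754 CPM (0.26). In all 4 were called higher and 2 lower (median -0.23), or 4 and 0 with median-of-ratios scaling.

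The counts of called genes in these lists stand against 6.96% higher and 16.8% lower over all genes, and with median-of-ratios scaling against 12.2% and 10.2%. Of 23 iron and redox genes, Prdx5 (952 to 1875 CPM, 0.98) and Prdx1 (0.64), both peroxide-reducing enzymes, were among 3 called higher, and Gclc (-1.50), which starts glutathione synthesis, and Prdx2 (-0.95), abundant in red cells, among 4 called lower (median 0.11; 6 and 3 with median-of-ratios scaling). Of 22 lysosomal genes Cd68 (0.73) was called higher and Psap (-0.69) lower (median 0.13; 5 and 0 with that scaling). Of 27 actin and motility genes 2 were called higher, Tagln2 (0.86) and Arpc3 (0.61), and 0 lower under both scalings (median -0.12, and 0.036 with median-of-ratios scaling). Of 19 genes known to respond to tissue dissociation 4 were called higher and 0 lower under both scalings (median 0.15), led by Egr1 (30.9 to 167 CPM, 2.40), which stood at 43.5 and 25.6 CPM in B lineage barcodes; the part of cell handling in it was not tested. Of 28 S and G2/M genes 11 were called lower and 0 higher (6 and 0 with median-of-ratios scaling), Mki67 among them (344 to 163 CPM, -1.07), with a median of -0.48 that was -0.13 among members with under 1% of erythroid and B lineage UMIs.

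Markers of other cells had the following medians in members: erythroid -1.82 (12 genes), B lineage -1.50 (15), T or NK -1.01 (7), dendritic -0.97 (10), basophil, eosinophil or mast -0.75 (10), stem or progenitor -0.21 (7), megakaryocyte or platelet -0.14 (3), and monocyte or macrophage -0.04 (19). Without the barcodes of highest doublet score the erythroid median was -0.49, B lineage -1.22, T or NK 0.22, dendritic -0.04, basophil, eosinophil or mast -0.13, and monocyte or macrophage 0.14. In the last list 5 of 19 genes were called higher and 3 lower (6.96% and 16.8% of all genes), or 5 and 1 with median-of-ratios scaling. Of these C1qa (4.91 to 31.0 CPM, 2.44), C1qb (4.33 to 43.9 CPM, 3.08) and C1qc (2.54), complement genes of macrophages, were furthest above the control, Nr4a1 (1.14) was also higher, and Ace (-1.37), Psap (-0.69) and Irf8 (-0.64) were the lower ones. C1qb was at 1.18 and 84.4 CPM in B lineage barcodes, so its level in members was above theirs in the control library and under theirs in the MYC library.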
